A study of Mus musculus with 20 samples.

Results

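The genes described here were the lysosomal proteases Ctsb, Ctsc, Ctsd, Ctsh, Ctsk, Ctsl, Ctss, Ctsz and Lgmn, together with Cst3, the secreted inhibitor of cysteine cathepsins. They were found by gene symbol in the tissue table and by the same Ensembl gene identifiers in the table of sorted cells, and make up 10 of the 54532 genes listed in each. All 10 passed the filter on low counts in every fit. Cathepsins are made as inactive precursors, sorted to the lysosome and activated there at acid pH, where they degrade proteins taken up from outside or delivered from within the cell. Macrophages carry large amounts of them, and secreted cathepsins can cut the extracellular matrix around tumors. Hepatocytes also have an active lysosomal compartment, so the healthy liver already transcribes many of these genes.

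The study followed liver metastasis in C57BL/6 mice of wild-type genotype after injection of 1000000 MC38 colorectal cancer cells through the spleen and portal vein. It measured RNA by sequencing in liver and tumor tissue and in cells isolated from tumors. Control livers received normal saline and were taken at day 0 (con, n = 2), and L-con was tumor-free liver remote from the metastases at day 12 (1 sample). Tumor samples were grouped by tumor content as Lt (low) and Mt3 (medium) at day 9, Mt2 and Mt1 (medium) at day 11 and Ht (high) at day 12, with n = 2 each after the treatment of Ht given next. F4/80+TAM and CD11b+TAM (n = 3 each) were cells taken by magnetic beads from medium-content tumors at day 11, which the study's methods name Mt2. The animals of these cells were not those of the sequenced tissue, as the sex-linked transcripts given below show. All mice of the tumor groups carried the same injected cell line, groups differ in day as well as in tumor content, and the labels do not say whether the replicates of the sorted cells came from separate animals, so that p-values there measure the spread between libraries, which may be technical.

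Libraries held 16032085 to 18246623 counted reads for tissue and 17785496 to 20548370 for sorted cells. The study's methods describe Ht_1 and Ht_3 as an identical sample, and their counts were summed to 1 sample here, although the difference between them (chi-square per degree of freedom 30.3 over 15284 genes) was no smaller than that between Ht_2 and Ht_3 (13.2). Scaling mattered for the tumor series. The con samples had TMM factors of 0.687 and 0.710 in edgeR and the Ht samples 1.60 and 1.58, while the 12 detected hepatocyte markers fell from a summed 183200 to 214800 CPM in con to 4166 to 6018 CPM in Ht. Levels below are CPM, read counts scaled by library size and TMM factor, from the fit of the 13 tissue samples unless said otherwise, and a gene is called changed where edgeR's quasi-likelihood test gives a Benjamini-Hochberg adjusted p no higher than 0.05 and the log2 fold change is 1 or more in either direction.

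Against con, the low-content tumors Lt carried more transcript of the endopeptidases Ctss and Ctsk, of the dipeptidyl peptidase Ctsc and of legumain. In the high-content tumors Ht the same 4 genes were called higher, Cst3 joined them, and the aminopeptidase Ctsh was called lower. Of the 10 genes 4 were therefore called higher in Lt, where 12.4% of all 17187 tested genes were, and none lower, where 0.256% were. In Ht 5 were called higher and 1 lower, with 25.8% and 24.1% of all genes called in those directions. The samples of con and Lt did not overlap for 5 of the 10 genes, all higher in Lt, where 37.2% of all genes were so separated upward and 26.7% downward. For con and Ht this held for 6 upward and 2 downward, beside 45.2% and 40.4% of all genes. The median log2 fold change of the 10 genes was 0.40 in Lt and 0.65 in Ht, beside 0.10 and 0.09 over all tested genes. The comparisons of Lt and Ht share the con samples. Marker levels of other cells moved with these groups. The 13 macrophage markers summed to 582 to 842 CPM in con, 1440 to 2218 CPM in Lt and 3163 to 3229 CPM in Ht, with none of them at or under 3 counts in a group, and the 12 fibroblast and stellate cell markers to 394 to 519 CPM, 1686 to 3149 CPM and 6215 to 7026 CPM, with Fap at or under 3 counts in con. Most of the latter sum in Ht was Col3a1 (a mean of 4645 CPM). Of these 12 genes 9 were called higher from con to Ht and 2 lower, Reln (-3.31) and Lrat (-1.49). The 9 neutrophil markers summed to 3.47 to 5.05 CPM in con, with Ly6g, Cxcr2, Retnlg and Camp at or under 3 counts, to 50.4 to 80.2 CPM in Lt, with Ly6g at or under 3 counts, and to 174 to 190 CPM in Ht. Most of the sum in Lt and Ht was Mmp9, with means of 45.1 and 164 CPM. From Lt to Ht 1 of the 8 neutrophil markers tested was called higher and 1 lower, with a median log2 fold change of -0.39. The 5 proliferation genes summed to 8.85 to 14.1 CPM in con, 197 to 359 CPM in Lt and 831 to 850 CPM in Ht. Kupffer cell markers, 5 genes, went the other way in Ht, with 319 to 430 CPM in con, 699 to 730 CPM in Lt and 70.9 to 124 CPM in Ht, and the 13 endothelial markers summed to 618 to 805 CPM in con, 574 to 656 CPM in Lt and 267 to 283 CPM in Ht. Of the 8 monocyte markers 6 were called higher in Lt and 7 in Ht, with median log2 fold changes of 4.37 and 5.01, while their sum, mostly from Fn1 (a mean of 1739 CPM in con), was 1746 to 1756 CPM in con, with Vcan at or under 3 counts, 2004 to 2169 CPM in Lt and 2052 to 2053 CPM in Ht. Dendritic cell markers, 7 genes, summed to 14.9 to 21.2 CPM in con, 30.9 to 47.9 CPM in Lt and 39.3 to 40.4 CPM in Ht, the 10 lymphocyte markers to 4.38 to 14.1, 12.6 to 33.3 and 24.5 to 33.5 CPM, and the 8 epithelial and tumor markers to 514 to 565, 443 to 794 and 112 to 216 CPM. This last sum did not follow tumor content. In con it was mostly Krt8, Krt18 and Cdh1 (means of 295, 146 and 93.7 CPM), and Epcam was at 1.59 CPM in con and 1.54 in Ht. The part of these cells in the results was not tested. In bulk tissue a change in the number of cells of a type and a change in RNA per cell cannot be told apart.

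**Figure D1:**
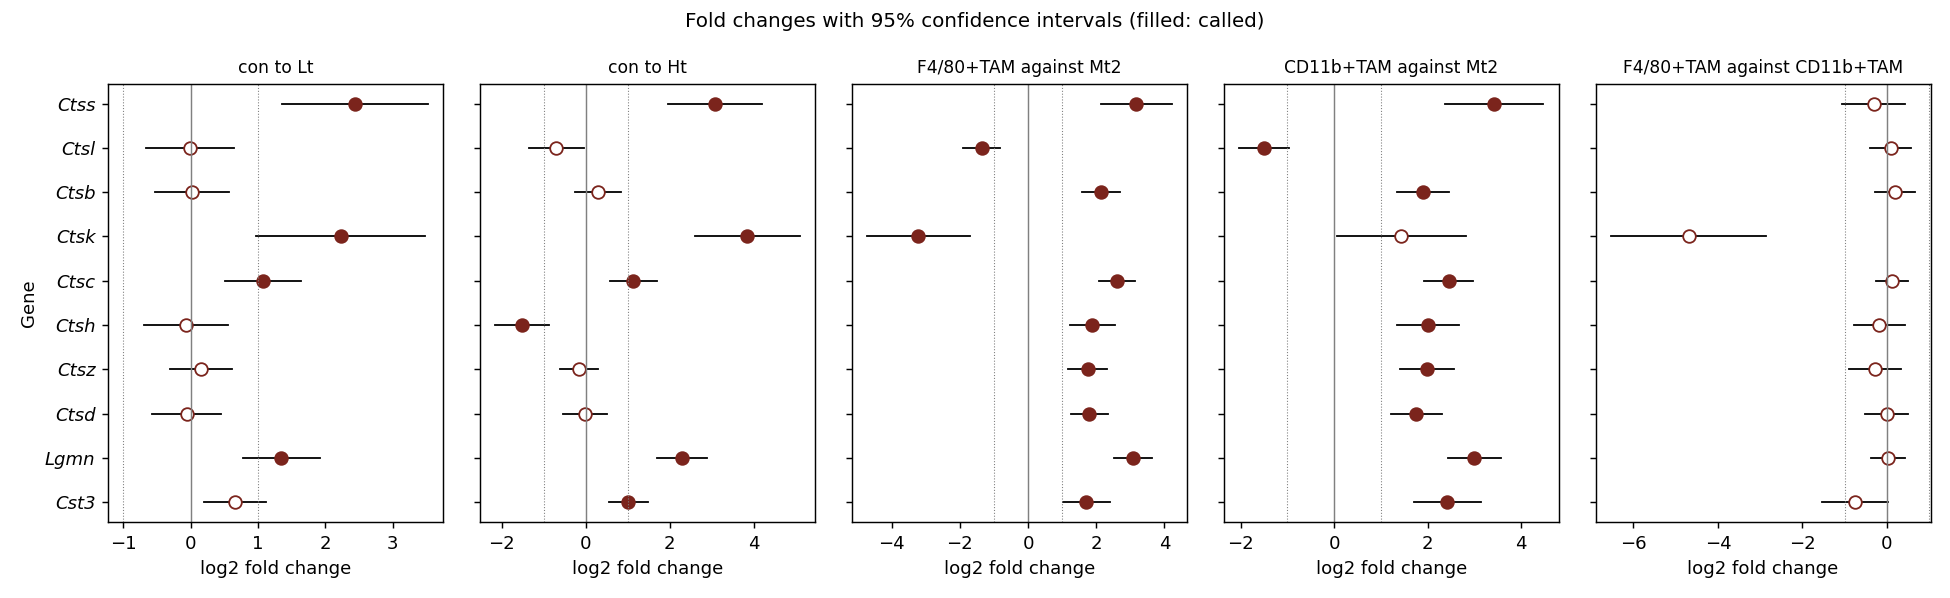
Log2 fold changes (horizontal axis) of the 10 genes (vertical axis) in 5 comparisons, with the sign read as the later group minus con in tissue and as the group named first minus the other in sorted cells. Points are edgeR estimates, lines are 95% confidence intervals, filled points passed both thresholds and dotted lines mark a log2 fold change of 1 in either direction. Ctss rose by 2.44 in Lt and 3.08 in Ht, and Ctsk stood apart from the other 9 genes in the comparison between the sorted populations, at -4.69.

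Cathepsin S (Ctss) is the endopeptidase that antigen-presenting cells use to trim the invariant chain of MHC class II. The con samples had 70.5 and 36.2 CPM, Lt 210 and 368, Mt3 193 and 387, Mt2 249 and 440, Mt1 352 and 367, and Ht 426 and 472.5. Every tumor sample lay above both con samples, and the 2 samples of Lt, Mt3 and Mt2 were far apart within each group. The log2 fold change against con was 2.44 (SE 0.48, edgeR adjusted p = 0.0102) in Lt and 3.08 (SE 0.49, edgeR adjusted p = 0.000658) in Ht, an 8.43-fold difference.

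Cathepsin K (Ctsk), the collagen-degrading enzyme best known from osteoclasts, had the lowest level per transcript length of the 10 (mean 0.712 FPKM in con and 10.2 in Ht). Levels were 1.33 and 0.827 CPM for con (15 and 10 reads), 6.80 and 3.30 for Lt, 2.81 and 3.57 for Mt3, 5.65 and 7.02 for Mt2, 15.7 and 34.3 for Mt1, and 19.5 and 11.5 for Ht. The highest value was in an Mt1 sample and not in Ht, and Mt1 and Ht overlapped. Ctsk had the largest fold change of the 10 genes in Ht, 14.4-fold on a log2 fold change of 3.84 (SE 0.55, edgeR adjusted p = 0.000427). In Lt the log2 fold change was 2.23 (SE 0.56, edgeR adjusted p = 0.0279).

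The other cysteine endopeptidases were cathepsin L (Ctsl) and cathepsin B (Ctsb), both expressed throughout the body. For Ctsl, con had 1087 and 689 CPM, Lt 972 and 796, Mt3 795 and 923, Mt2 748 and 731, Mt1 746 and 645, and Ht 576 and 520. Both Ht samples were below all other tissue samples, but the log2 fold change of -0.70 against con had an interval from -1.35 to -0.04 and was not called (edgeR adjusted p = 0.0595). With Ht_1, Ht_2 and Ht_3 as separate libraries, on the scale of the 14 tissue libraries, Ctsl was at 704, 538 and 495 CPM, still below con (1121 and 712), but Ht_1 was above the lowest Mt1 sample (674). Ctsb lay between 822 and 1090 CPM in all 13 samples, with a log2 fold change of 0.29 in Ht (95% interval -0.26 to 0.84).

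**Figure D2:**
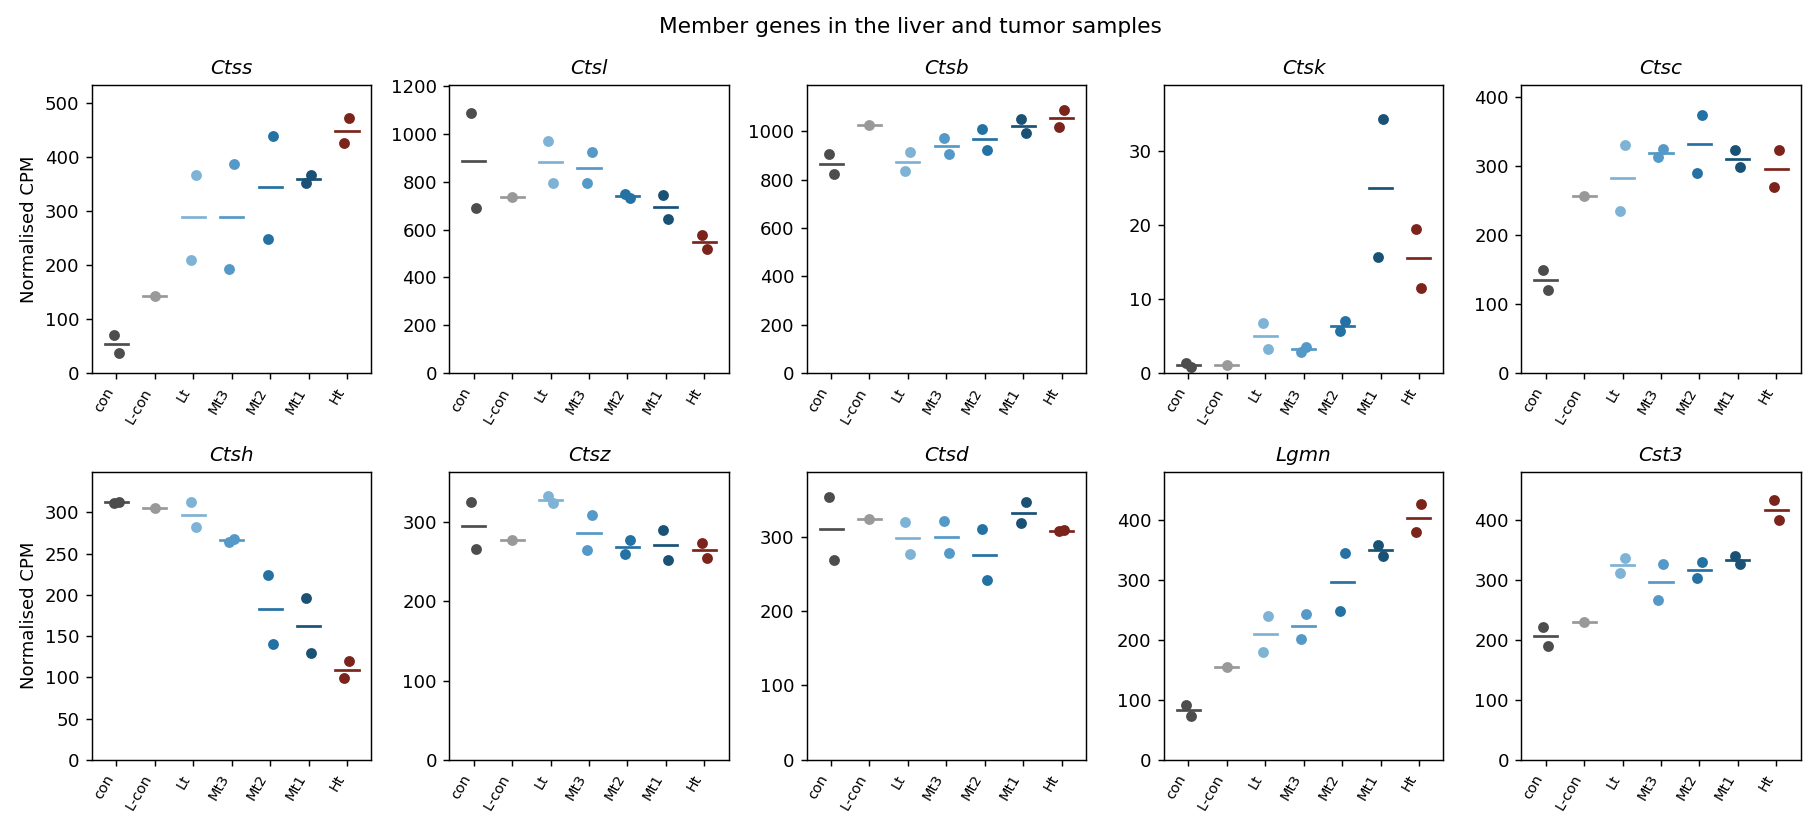
TMM-scaled CPM (vertical axes, linear and starting at 0) of each gene in the 7 tissue groups (horizontal axes). Points are samples and short lines are group means, and the first Ht point is the sum of libraries Ht_1 and Ht_3. Ctss and Lgmn were lowest in con and highest in Ht, Ctsh was highest in con and lowest in Ht, and Ctsd (242 to 353 CPM) and Ctsz (252 to 333 CPM) overlapped between con and Ht.

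Among the exopeptidases, cathepsin C (Ctsc), which removes dipeptides and activates the serine proteases of granules, had 150 and 120 CPM for con, 236 and 331 for Lt, 313 and 325 for Mt3, 291 and 374 for Mt2, 323 and 299 for Mt1, and 269 and 323 for Ht. It was higher in every tumor sample than in con, and the tumor groups overlapped each other. Its log2 fold change was 1.07 (SE 0.25, edgeR adjusted p = 0.0202) in Lt and 1.14 (SE 0.25, edgeR adjusted p = 0.00333) in Ht.

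Cathepsin H (Ctsh), an aminopeptidase, moved the other way, with con at 312 and 313 CPM, Lt at 312 and 283, Mt3 at 264 and 268, Mt2 at 225 and 140.5, Mt1 at 196 and 129, and Ht at 99.0 and 119. The log2 fold change in Ht was -1.52 (SE 0.28, edgeR adjusted p = 0.00142), and both Ht samples lay below all 11 others. The summed hepatocyte markers fell along the same samples, and their part in the level of Ctsh was not tested. Cathepsin Z (Ctsz), a carboxypeptidase, ranged from 252 to 333 CPM over the tissue samples and was not called in any comparison among them.

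Cathepsin D (Ctsd), the aspartic endopeptidase of the lysosome, lay between 242 and 353 CPM, with a log2 fold change of -0.01 in Ht and a 95% interval from -0.53 to 0.50. Legumain (Lgmn) cuts after asparagine and helps to activate several cathepsins. Samples of con had 91.1 and 73.4 CPM, those of Lt 179 and 239.3, of Mt3 201 and 243, of Mt2 248 and 344, of Mt1 359 and 339, and of Ht 380.3 and 427. No Lt or Mt3 sample reached the Ht samples, and the log2 fold change against con was 1.35 (SE 0.25, edgeR adjusted p = 0.0082) in Lt and 2.30 (SE 0.26, edgeR adjusted p = 0.000167) in Ht.

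Cystatin C (Cst3), the inhibitor of the set, had 222 and 189.8 CPM for con, 312 and 337 for Lt, 267 and 326 for Mt3, 303 and 329.7 for Mt2, 339.7 and 327 for Mt1, and 433 and 399.5 for Ht. All tumor samples were above con. It rose 2.02-fold in Ht (log2 fold change 1.02, SE 0.20, edgeR adjusted p = 0.00212), while the log2 fold change of 0.66 in Lt was not called (edgeR adjusted p = 0.0632).

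With 2 con samples these calls were unequally firm. Without con_2 none of the 4 calls in Lt was kept (edgeR adjusted p from 0.0853 for Lgmn to 0.185 for Ctsk), and without Lt_2 only that of Ctsk was; without con_1 Ctsc and Ctsk were lost (0.0566 and 0.0871) and without Lt_1 Ctsk was (0.131). In Ht the calls of Ctss, Ctsk, Lgmn and Ctsh held when any 1 con or Ht sample was left out, while Ctsc and Cst3 fell below the fold threshold without con_2 (0.98 and 0.91), as Cst3 did without the summed Ht_1 and Ht_3 (0.96). Scaling by total counts in place of TMM moved the median of all genes in Ht to 1.28: Ctsb, Ctsd and Ctsz were then also called higher (8 of 10) and Ctsh was no longer called lower (-0.33), with 79.7% of all calls being higher against 51.7%. Set against that median, the change of Ctsh was -1.61 under either scaling, and those of Ctss and Ctsk were 2.98 to 2.99 and 3.75 to 3.76.

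From Lt to Ht, 1 gene was called higher and 1 lower of the 10, beside 11.7% and 20.2% of all genes. Samples did not overlap for 5 genes higher in Ht and 3 lower, beside 39.4% and 41.1% of all genes. With Ht_1 and Ht_3 as separate libraries, Ctss and Ctsz overlapped between Lt and Ht. Ctsk rose further (log2 fold change 1.62, SE 0.47, edgeR adjusted p = 0.021), but this call was lost without Lt_2 (edgeR adjusted p = 0.107) or without the summed Ht_1 and Ht_3 (edgeR adjusted p = 0.133). Ctsh fell by 1.45 on the log2 scale (SE 0.28, edgeR adjusted p = 0.00483). Lgmn had a log2 fold change of 0.95 with an edgeR adjusted p of 0.0145, just under the fold threshold, and was called by DESeq2 (1.05) and without Lt_2 (1.17). Ctss did not pass here (0.64, 95% interval -0.39 to 1.67), and neither did Ctsc (0.06, -0.49 to 0.62). By total counts, with the median of all genes at 0.87 and 74.9% of calls higher against 36.6%, Ctss, Ctsb, Lgmn and Cst3 were called higher beside Ctsk and the fall of Ctsh shrank to -0.55, while set against the median it was -1.43 and -1.42 under the 2 scalings.

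From the 3 medium groups together to Ht, edgeR called none of the 10 genes, where 1.5% of all genes were called higher and 13.4% lower, and 4 of the 10 had an unadjusted p under 0.05. The nearest were Ctsk (log2 fold change 0.96, edgeR adjusted p = 0.075) and Ctsh (-0.87, edgeR adjusted p = 0.0327), and DESeq2 called only Ctsk (1.01). The estimate for Ctsk averages 3 unlike groups, with means of 3.19 CPM in Mt3, 6.335 in Mt2 and 25.0 in Mt1, beside 15.5 in Ht. Over 19 other settings this estimate ranged from 0.42 to 1.47, and in 14 of them Ctsk stayed uncalled. By total counts, Ctsk and Lgmn were called higher, at 1.47 and 1.04, with the median of all genes at 0.55 and 15.1% of all genes called higher and 10.3% lower (59.3% of calls higher against 10%). Without Mt1_2 Ctsk was also called by edgeR (1.18, adjusted p = 0.0324). Samples of the medium groups and Ht did not overlap for Lgmn and Cst3, higher in Ht, and for Ctsh and Ctsl, lower in Ht, beside 18.7% and 22.7% of all genes in those directions. With Ht_1 and Ht_3 as separate libraries Ctsl overlapped and the other 3 did not. For Ctsh the day 9 samples of Mt3 were also above both Mt2 samples of day 11.

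The remote liver L-con, with 1 sample, had Ctss at 143 CPM, Ctsc at 257 and Lgmn at 154, each above both con samples and below every tumor sample except for Ctsc, whose lowest tumor value was 236. Ctsk (1.07) and Ctsh (305) were close to con there. L-con was not tested against con.

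Per unit of transcript length the set changed its make-up. In con the genes with the highest mean length-scaled level (FPKM) were Ctsz (205), Cst3 (163), Ctsb (143), Ctsl (137) and Ctsd (132), while in Ht Ctss (331) and Cst3 (329) led, ahead of Ctsz (183), Ctsb (174) and Lgmn (174). As a share of the summed FPKM of the 10 genes, Ctss took 4.91% and 3.18% for con, 21.2% and 23.1% for Ht, and 31.8% to 41.7% in the 6 sorted libraries. Ctsz took 21.4% and 21.98% of the sum for con and 12.8% and 11.8% for Ht. The share of Ctsl was 15.9% and 12.65% for con, 6.01% and 5.33% for Ht and 0.308% to 0.78% for sorted cells. These shares do not depend on how libraries are scaled. All 10 genes together took 0.2415% and 0.197% of counted reads for con, 0.61% and 0.619% for Ht and 1.74% to 1.98% in sorted cells.

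**Figure D3:**
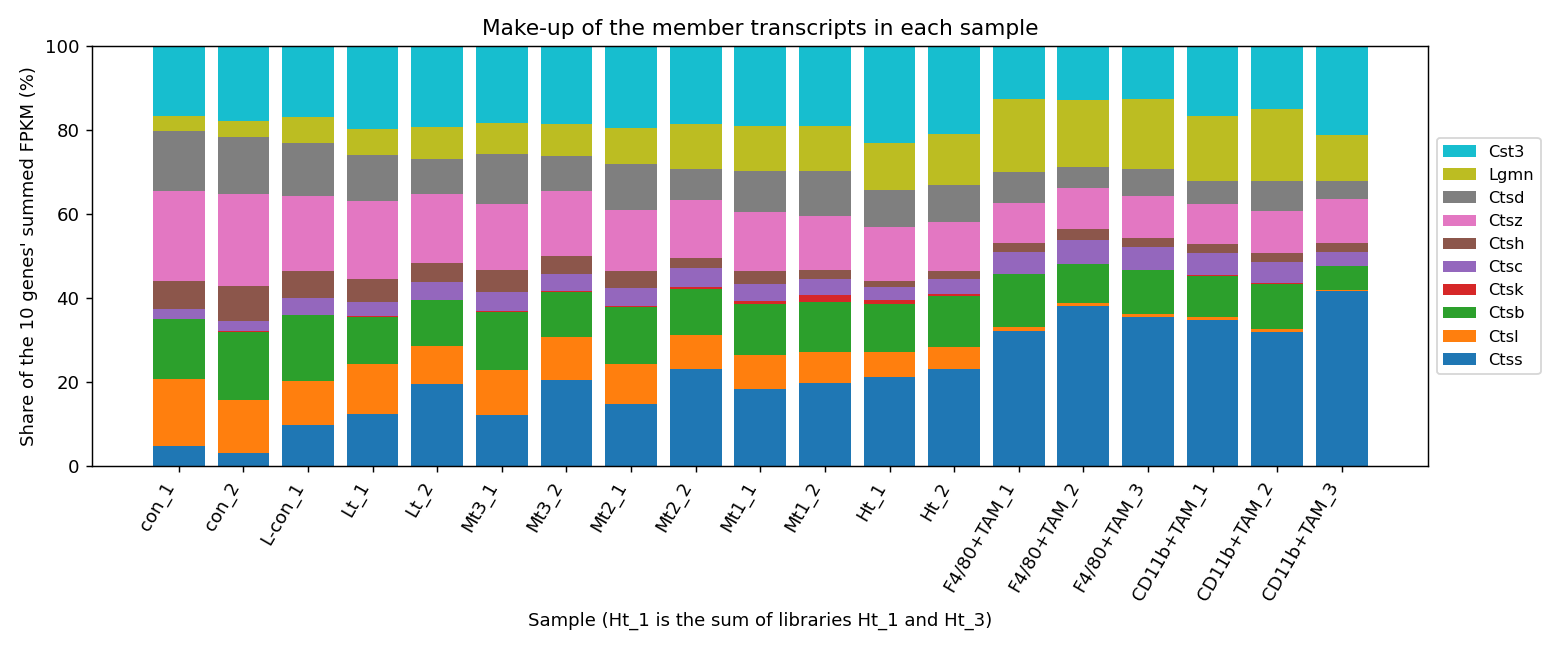
Share in percent (vertical axis) of each gene in the summed FPKM of the 10 genes, for each of the 19 samples (horizontal axis). Stacked bars start at 0 and add to 100, and Ht_1 stands for the summed libraries. The share of Ctss was 3.18% to 4.91% in con and at least 31.8% in sorted cells, and Ctsl was under 1% there.

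The start regions of the genes that rose can be set beside each other. Ctss and Ctsk are neighbours on chromosome 3, on the same strand, with 17423 bases and no other whole gene between their deposited gene models. RefSeq windows upstream of the start (250 bases, build GRCm38.p6) were at hand for 8 of the 10 genes in 9 entries, with none for Ctsb and Ctsh. The windows of Ctss, Ctsk and Ctsc are shown because these genes rose in Lt and their windows lie wholly outside the deposited gene models. They are written from 5′ to 3′ on the strand of the gene, and capitals mark the motifs searched on both strands: CACGTG, the E-box at the core of the CLEAR element of lysosomal genes, the longer palindromic CLEAR element, which contains that core, GAGGAA, the core of a PU-box, TATAAA and GGGCGG. Matches on the other strand appear as their reverse complements.
Ctss, chr3:95526536-95526785, plus strand: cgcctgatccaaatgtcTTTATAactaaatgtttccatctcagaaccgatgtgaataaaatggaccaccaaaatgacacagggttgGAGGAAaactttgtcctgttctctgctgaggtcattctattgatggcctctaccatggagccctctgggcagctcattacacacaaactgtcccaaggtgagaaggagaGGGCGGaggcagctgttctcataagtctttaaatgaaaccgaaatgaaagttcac
Ctsk, chr3:95498960-95499209, plus strand: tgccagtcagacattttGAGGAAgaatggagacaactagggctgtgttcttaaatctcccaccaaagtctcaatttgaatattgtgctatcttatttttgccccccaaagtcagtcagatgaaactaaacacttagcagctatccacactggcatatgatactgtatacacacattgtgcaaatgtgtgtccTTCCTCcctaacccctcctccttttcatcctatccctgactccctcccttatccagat
Ctsc, chr7:88277835-88278084, plus strand: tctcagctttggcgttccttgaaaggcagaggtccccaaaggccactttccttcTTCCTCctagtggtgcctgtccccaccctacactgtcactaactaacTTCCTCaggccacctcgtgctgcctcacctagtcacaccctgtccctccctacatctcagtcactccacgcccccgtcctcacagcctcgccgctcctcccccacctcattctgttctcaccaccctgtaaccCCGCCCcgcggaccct
GAGGAA was found in all 3 of these windows and in that of Cst3, that is in 4 of 9 entries and in 23.3% of all 32851 RefSeq windows of that length. CACGTG was in 3 of 9 entries (Ctsl, Ctsd and the second of 2 for Lgmn) and in 6.02% of all windows. Of these 3 windows, those of Ctsl and Lgmn lie with all 250 bases inside the deposited gene model and that of Ctsd with 211 of 250. The palindromic CLEAR element was in 0 of 9 and 0.24% of all. GGGCGG was in 6 of 9 entries (32.7% of all) and TATAAA in 2 of 9 (12.4% of all). These are matches of letters only.

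In the cells sorted from tumors of the Mt2 class, 8 of the 10 genes stood far above Mt2 tissue, and the exceptions were Ctsl and Ctsk. In F4/80+TAM 8 were called higher and 2 lower than in Mt2, beside 17.2% and 25.2% of all 18407 tested genes, and in CD11b+TAM 8 were called higher and 1 lower, beside 17.6% and 26.3%. The same genes were those whose samples did not overlap with Mt2, which held for 33.5% of all genes upward and 38.1% downward in F4/80+TAM and for 29.4% and 35.6% in CD11b+TAM. The median log2 fold change of the 10 was 1.84 and 2.00, against -0.12 and -0.08 over all genes. Both comparisons share the Mt2 samples. Levels in this and the next paragraphs are CPM from the fit of all 19 samples.

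**Figure D4:**
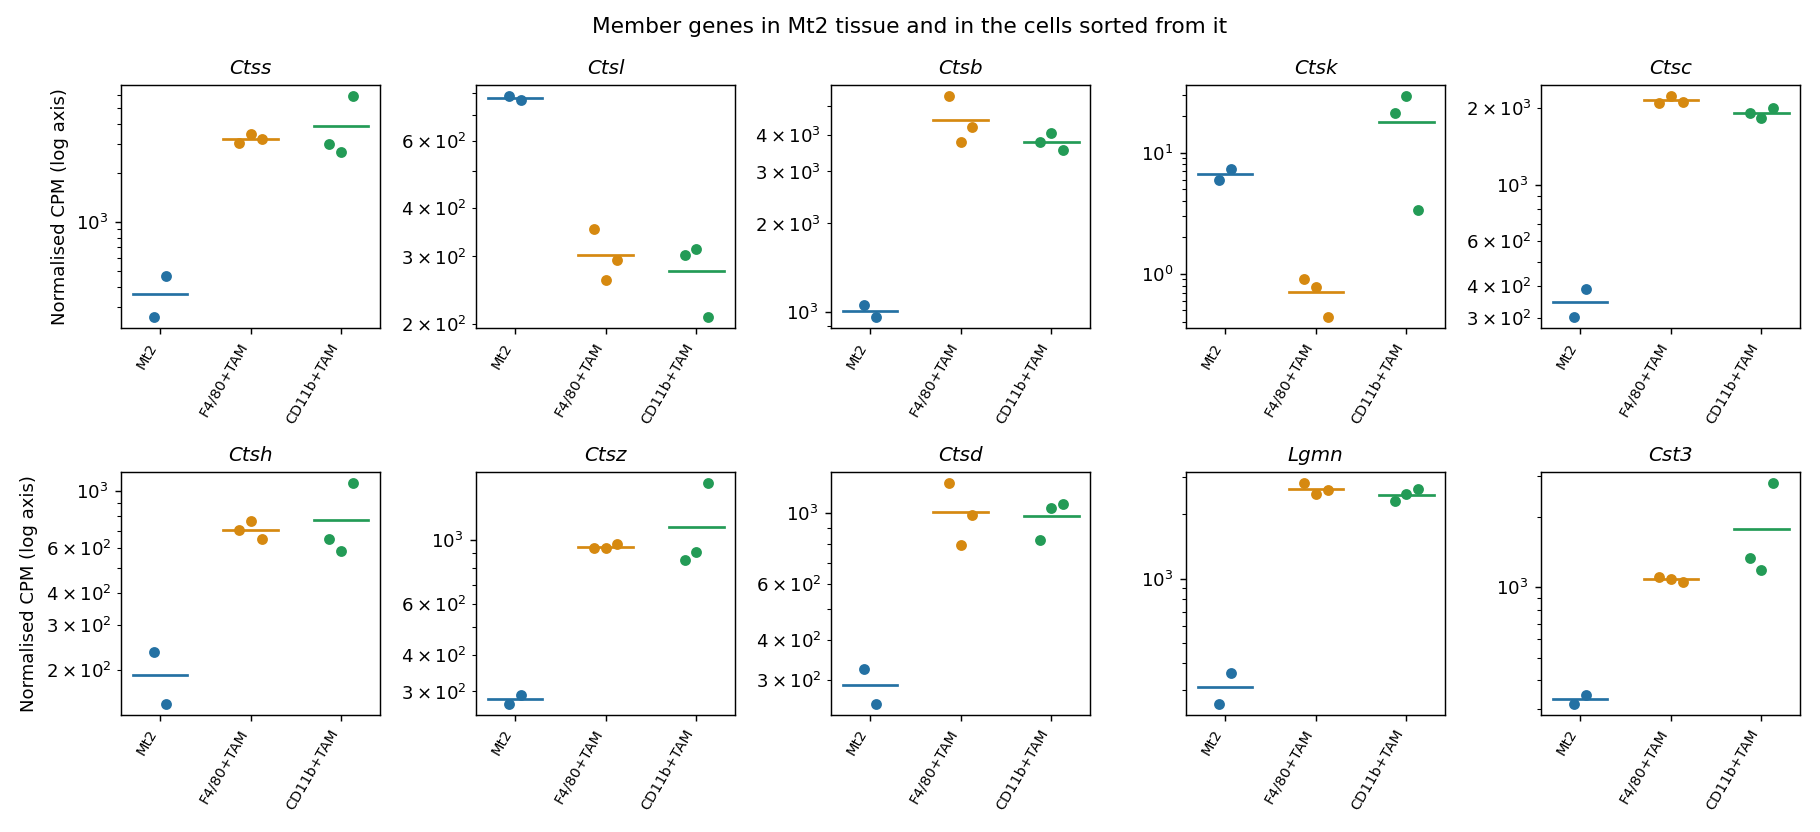
TMM-scaled CPM from the fit of all 19 samples (vertical axes, logarithmic) of each gene in Mt2 tissue and in F4/80+TAM and CD11b+TAM (horizontal axes). Points are samples and short lines are group means. Ctsl was lower in all 6 sorted libraries than in Mt2, and Ctsk was under 1 CPM in the 3 F4/80+TAM libraries.

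Ctss was at 261 and 461 CPM in Mt2, 3065, 3465 and 3205 in F4/80+TAM, and 2994, 2700 and 5928 in CD11b+TAM. Its log2 fold change against Mt2 was 3.17 (SE 0.49, edgeR adjusted p = 7.29e-05) in F4/80+TAM and 3.42 (SE 0.49, edgeR adjusted p = 3.69e-05) in CD11b+TAM, the largest rise among the 10 in either population. Lgmn followed, at 260 and 361 CPM in Mt2, 2815, 2479 and 2591 in F4/80+TAM, and 2303, 2489 and 2635 in CD11b+TAM, with log2 fold changes of 3.08 for F4/80+TAM and 2.9955 for CD11b+TAM.

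The other genes called higher in both populations differed less from the tissue. Against Mt2, log2 fold changes of Ctsc were 2.62 for F4/80+TAM and 2.45 for CD11b+TAM, and in the same order Ctsb had 2.14 and 1.90, Ctsh 1.89 and 2.01, Ctsd 1.80 and 1.76, Ctsz 1.75 and 1.98, and Cst3 1.71 and 2.42. Ctsb, Ctsd and Ctsz, which were not called between con and Ht, were thus well above tissue in the sorted cells, with no overlap between samples. Ctsh, called lower from con to Ht, was at 236 and 147 CPM in Mt2, 649 to 769 in F4/80+TAM and 585 to 1082 in CD11b+TAM.

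Ctsl was the gene called lower in both. It was at 784 and 766 CPM in Mt2, 354, 261 and 294 in F4/80+TAM, and 303, 314 and 209 in CD11b+TAM, with log2 fold changes of -1.36 (SE 0.25, edgeR adjusted p = 0.000392) and -1.49 (SE 0.25, edgeR adjusted p = 0.000158). Its con samples, at 1124 and 719 CPM on this scale, were also above all sorted libraries. Ctsk was at 5.92 and 7.36 CPM in Mt2, 0.909, 0.786 and 0.444 in F4/80+TAM, and 21.2, 29.3 and 3.37 in CD11b+TAM. It was called lower in F4/80+TAM (log2 fold change -3.21, SE 0.70, edgeR adjusted p = 0.00143), not called in CD11b+TAM (1.43, SE 0.65, edgeR adjusted p = 0.0716), and called higher there without CD11b+TAM_3 (1.92, edgeR adjusted p = 0.00231). DESeq2 also called it higher in CD11b+TAM (1.44, DESeq2 adjusted p = 0.0475), as did edgeR with no filter on low counts (1.49, edgeR adjusted p = 2.66e-05).

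The sorted libraries differ from the tissue in more than purity. Xist had 0 to 3 counts in tissue and 5547 to 21805 in sorted cells, and Ddx3y 348 to 1421 in tissue and 0 in sorted cells. By these transcripts the tissue and the sorted cells came from different animals, of different sex. That difference cannot be told apart from the sort in these comparisons. The labels give the tissue as male and no sex for the sorted cells, and the study's methods name female mice. On the joint scale the 13 macrophage markers summed to 2050 to 2857 CPM in Mt2, 21410 to 23010 in F4/80+TAM and 19680 to 32490 in CD11b+TAM, with none of them at or under 3 counts in a group. The 12 fibroblast and stellate cell markers summed to 3598 to 5801 CPM in Mt2 and 173 to 552 in sorted cells, and the hepatocyte markers to 33540 to 121300 and 72.9 to 387, with the hepatocyte gene Cps1 and the stellate cell gene Reln at or under 3 counts in every CD11b+TAM library. Neutrophil markers summed to 111 to 163 CPM in Mt2, 175 to 540 in F4/80+TAM and 1265 to 4022 in CD11b+TAM. For dendritic cell markers the sums were 42.2 to 57.9, 197.5 to 390 and 293 to 360. Endothelial markers summed to 345 to 586 CPM in Mt2 and 157 to 394 in sorted cells, and the epithelial and tumor markers to 421 to 530 and 3.99 to 15.4.

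Between the 2 sorted populations edgeR called none of the 10 genes, where 0.00701% of 14263 genes were called higher in F4/80+TAM and 0.0701% lower, and only Ctsk had an unadjusted p under 0.05. DESeq2 called Ctsk lower in F4/80+TAM, as its only call among the 10. The estimate was large, a log2 fold change of -4.69 (SE 0.79, 95% interval -6.53 to -2.86), with an edgeR adjusted p of 0.0708 and no overlap between the groups. F4/80+TAM held 18, 16 and 9 reads of Ctsk and CD11b+TAM 447, 692 and 58. Without CD11b+TAM_3 it was called, at -5.18 (edgeR adjusted p = 0.00104).

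Cst3 was the other gene whose samples did not overlap, at 1113, 1091 and 1056 CPM in F4/80+TAM and 1331, 1185 and 2814 in CD11b+TAM (log2 fold change -0.76, 95% interval -1.54 to 0.01, edgeR adjusted p = 0.471). Without CD11b+TAM_3 its log2 fold change was -0.25 (edgeR adjusted p = 0.268). Among all genes, on the scale of the sorted libraries, 11.5% did not overlap with F4/80+TAM higher and 11.8% with it lower. For the 8 genes other than Ctsk and Cst3 the intervals of the difference lay within -1.05 and 0.67 on the log2 scale. The widest was that of Ctss (-0.31, -1.05 to 0.43), and those of Ctsc (-0.26 to 0.49) and Lgmn (-0.37 to 0.44) were the narrowest.

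CD11b+TAM_3 stood apart from the other libraries of its group. It had the highest Ctss (5928 CPM), Cst3 (2814), Ctsz (1579 against 854 and 907) and Ctsh (1082 against 650 and 585) of all sorted libraries and the lowest Ctsl (209). Its macrophage markers summed to 32490 CPM against 20110 and 19680 in the other CD11b+TAM libraries. Of that sum Lyz2 held 11520 CPM, against 5381 and 6203, and C1qa, C1qb, C1qc, Fcgr1, Aif1 and Adgre1 were also higher in CD11b+TAM_3. Csf1r (1692 against 2013 and 2152), Cd68 (432 against 539.5 and 597), Mertk, Mrc1, Cd163 and Msr1 were lower in it. The neutrophil markers of CD11b+TAM_3 summed to 4022 CPM against 1353 and 1265, beside 175 to 540 in F4/80+TAM. Kupffer cell markers summed to 587 to 2347 CPM in F4/80+TAM and 51.7 to 110 in CD11b+TAM. Other lists also differed, with a median log2 fold change of F4/80+TAM against CD11b+TAM of -1.60 for dendritic cell and -0.77 for monocyte markers. It was 1.02 for endothelial, 0.98 for hepatocyte and 0.84 for fibroblast and stellate cell markers. The part of these cell types in the differences of Ctsk and Cst3 was not tested. Without CD11b+TAM_3, the log2 fold changes of Ctss, Ctsz and Ctsh changed sign, to 0.15, 0.07 and 0.15, and so did those of Ctsd (-0.0077 to 0.071) and Ctsl (0.088 to -0.068). None of these passed.

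**Figure D5:**
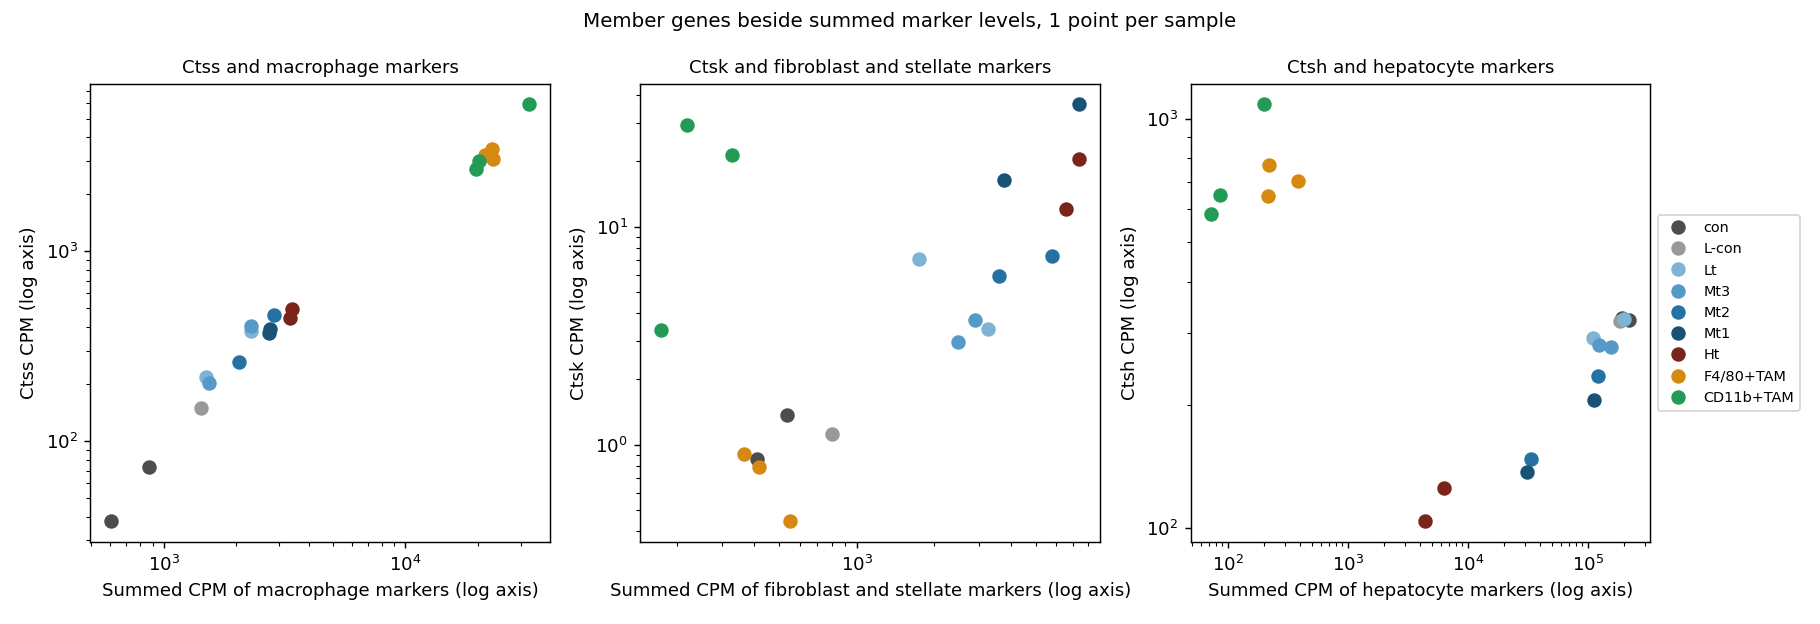
CPM of Ctss, Ctsk and Ctsh (vertical axes, logarithmic) against the summed CPM of macrophage, fibroblast and stellate cell, and hepatocyte markers (horizontal axes, logarithmic) in the 19 samples, on the scale of the joint fit. Ctss was highest in CD11b+TAM_3, where the sum of the macrophage markers, though not each of them, was highest. Ctsk was at 0.444 to 0.909 CPM in F4/80+TAM and at 3.37 to 29.3 in CD11b+TAM, while fibroblast and stellate cell markers summed to 173 to 552 CPM over both. Ctsh was at 585 CPM or more in sorted cells with few hepatocyte markers.

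Over all 9 groups, the order of mean levels separated the genes further. The means of Ctss, Lgmn and Cst3 were highest in sorted cells, followed by Ht and Mt1, and lowest in L-con and con, and F4/80+TAM and CD11b+TAM overlapped for Ctss and Lgmn. Ctsl was ordered nearly the other way, with con, Lt and Mt3 at the top and overlapping, and Ht above only the sorted cells. Ctsk was highest in Mt1, CD11b+TAM and Ht, which overlapped from one to the next, and lowest in L-con, con and F4/80+TAM. For Ctsz and Ctsd the tissue groups mostly overlapped their neighbours in the order.

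The genes whose profile over the 13 tissue samples was most like that of a member were taken from 12935 candidates by Pearson correlation of log2(CPM + 1). The samples fall into 7 groups, so these values describe likeness only. For Ctss they were Cd52 (0.996), Cd53 (0.994) and Ifi211 (0.992), the first 2 surface proteins of leukocytes, and for Lgmn Cd68 (0.995), the macrophage lysosomal glycoprotein, Slc44a2 (0.995) and Tlr13 (0.994). Ctsc went with Ccr2 (0.970), the chemokine receptor of monocytes, Ifih1 (0.969) and Klra2 (0.967). Ctsk went with Mfap2 (0.966), a protein of matrix microfibrils, Fxyd6 (0.953) and Slc6a8 (0.933). Ctsh had Fam47e (0.994), Esd (0.992) and Gm5524 (0.992), and Ctsl had Cers4 (0.952), a ceramide synthase, Pdzk1ip1 (0.933) and 9130019O22Rik (0.916). For Cst3 the list was Nenf (0.974), Rps15a (0.968) and Necap2 (0.967), and for Ctsz it was Fabp4 (0.936), Dnajc7 (0.904) and Mrpl20 (0.900). The weakest likeness was found for Ctsb, with Atp6v1b2 (0.912), a subunit of the proton pump of the lysosome, Scaf8 (0.897) and Ppp1r21 (0.895), and for Ctsd, with 2510039O18Rik (0.807), Tmem88 (0.799) and Gm7336 (0.797).

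From con to Ht the rest of the lysosomal machinery had calls in both directions on the TMM scale, where 25.8% of all genes were called higher and 24.1% lower. These counts rest on the scaling, and those by total counts follow them. Of 12 other lysosomal peptidases tested 4 were called higher and 2 lower (median log2 fold change -0.11), with Ctsw (3.38), the cathepsin of cytotoxic lymphocytes, Napsa (3.24) and Prcp (1.94) highest and Ctsf (-3.30) and Ctso (-1.22) lower. Of 30 lysosomal hydrolases other than proteases 4 were higher, among them Glb1 (1.54) and Gusb (1.24), and 5 lower, among them Acp5 (-2.33), Lipa (-1.79) and Smpd1 (-1.51), with a median of 0.19. Of 13 lysosomal membrane proteins 5 were higher and 4 lower (median 0.45): the tetraspanin Cd63 rose by 5.97, Laptm5 by 2.69 and Cd68, also a macrophage marker, by 2.62, while Lamp2 (-2.23), the cholesterol transporter Npc1 (-1.91) and Scarb2 (-1.51) fell. V-ATPase subunits, which acidify the lysosome, included 0 higher and 4 lower of 16 (median -0.19), with Atp6v1e1 (-1.46), Atp6v1h (-1.39) and Atp6v0a1 (-1.04) lowest among those called. Of 10 sorting factors and activators 2 were lower, Gm2a (-1.71) and Gnptg (-1.36), and of the 4 MiT/TFE factors, which drive lysosomal genes, none was called by edgeR, with 2 at an unadjusted p under 0.05. By total counts, which moved the median of all genes by over 1 on the log2 scale, 51.3% of all genes were called higher and 13.1% lower. The calls on this scale were 7 higher and 1 lower for other peptidases, 21 and 1 for hydrolases, 7 and 1 for membrane proteins, 8 and 0 for V-ATPase subunits, 6 and 0 for sorting factors and activators and 4 and 0 for the MiT/TFE factors. Set against the median of all genes, the medians of these 6 lists by total counts lay between -0.28, for V-ATPase subunits, and 0.36, for membrane proteins.

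Of 8 other members of the cystatin superfamily tested, 5 were lower in Ht under either scaling (median -3.95), Hrg (-5.21), Kng1 (-4.73), Fetub (-4.68), Ahsg (-4.08), which is also in the hepatocyte list, and Kng2 (-3.82), all secreted by hepatocytes. Cst7 (log2 fold change 2.98) and Cst6 were higher. Cst6 had 0 reads in both con samples and a mean of 11.3 CPM in Ht, which is at least 43.9-fold higher than a floor of 3 reads per con library. Cstb, the cytosolic inhibitor, had a log2 fold change of 0.83 with an edgeR adjusted p of 0.0128, under the fold threshold.

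From con to Lt, where 12.4% of all genes were called higher and 0.256% lower, the genes called higher were 2 of 12 other peptidases, 1 of 8 cystatins (Cst6, at least 12.98-fold), 3 of 13 membrane proteins, and none of the 30 hydrolases, 16 V-ATPase subunits, 10 sorting factors and 4 MiT/TFE factors by edgeR, where 7, 1, 0 and 1 had an unadjusted p under 0.05. From Lt to Ht 3 hydrolases were higher and 4 lower, and 2 V-ATPase subunits were lower, against 17 and 1 hydrolases and 3 V-ATPase subunits higher by total counts. Of all genes 11.7% were called higher there and 20.2% lower, and by total counts 36.2% and 12.1%. In sorted cells against Mt2 each list but the cystatins had more genes called higher than lower, beside 17.2% of all genes higher and 25.2% lower in F4/80+TAM and 17.6% and 26.3% in CD11b+TAM. In F4/80+TAM 20 of 30 hydrolases were higher and 2 lower (median 1.73), in CD11b+TAM 21 and 2 (median 1.57). The V-ATPase subunits had 6 and 9 of 16 higher and none lower, and other peptidases 6 of 13 higher in each and none lower. All 4 MiT/TFE factors were higher in both, Tfeb by 2.18 and 2.43, Tfec by 2.12 and 2.05, Mitf by 1.77 and 1.24, and Tfe3 by 1.43 and 1.19. Of 9 cystatins tested 6 were lower in each population, and Stfa2l1, at 0.0211 CPM in Mt2 and 3.58 in CD11b+TAM, was called higher in the latter.

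Some counts can be shared with overlapping genes. Fdft1 overlaps Ctsb and Nelfcd overlaps Ctsz on the opposite strand, with 246 to 2408 and 332 to 1742 counts against 9944 to 107030 for Ctsb and 3217 to 27226 for Ctsz. Gm26522 overlaps Ctsc on the opposite strand, with 0 to 191 counts against 1451 to 45200. Hmgb1-ps5 overlaps Ctss on the same strand, with 0 to 107 counts against 438 to 102179. Whether counting used strand is not given in the sources used here, so reads from these partners cannot be told apart from those of the genes they overlap.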

How the data were processed

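RNA was sequenced in 14 liver and tumor libraries and 6 libraries of sorted cells. The authors deposited raw counts per gene. The submitters' processing notes name CASAVA, HISAT2 2.0.5, featureCounts 1.5.0-p3 and the builds GRCm38 and mm10, and strand settings are not given in the sources used here. The table of sorted cells gives no symbols and was matched to the tissue table by gene identifier. Counts were tested with edgeR 4.0.16 (R 4.3.3): filterByExpr, TMM, glmQLFit and glmQLFTest, Benjamini-Hochberg over all genes tested, with calls at 0.05 and a log2 fold change of 1 in either direction. Fits held the 13 tissue samples (Ht_1 and Ht_3 summed), the 6 sorted libraries, or all 19, each sharing 1 estimate of spread. The mean of Mt3, Mt2 and Mt1 stood for Mt. FPKM used the deposited gene lengths. The tests were checked on simulated data.

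The 10 genes and all lists were chosen with earlier results of these data known. The text names all 10 genes, for each the 3 genes of highest correlation (mean log2 CPM of at least 1), and by con to Ht up to 3 called genes per direction of each pathway list. Other genes (Kng2, Ahsg, Cstb, Stfa2l1, the MiT/TFE factors) were named after their values were seen. DESeq2 1.42.0, other scalings and filters, and leaving out samples were alternatives. Intervals cover the spread between samples. Sequences came from RefSeq for GRCm38.p6.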

Additional observations from a re-analysis of the deposited data

Results flagged for a closer look

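L-con, the tumor-free liver of mice with metastases, has 1 library and entered no test. The genes that lay above both con libraries in it were Ctsb at 1026 CPM (con 822 and 907), Ctsc at 256.9 CPM (con 120 and 150), Ctss at 143.1 CPM (con 36.2 and 70.5), Lgmn at 154.3 CPM (con 73.4 and 91.1) and Cst3 at 230.3 CPM (con 190 and 222). The share of all genes above both con libraries was not counted, so the number of such members cannot be weighed. Ctss, Ctsc and Lgmn were 2.68, 1.90 and 1.88 times the con mean, and Ctsb and Cst3 1.19 and 1.12 times. Ctsh was below both con libraries (305 CPM) and the other 4 genes lay between them. The macrophage markers summed to 1362 CPM in L-con and 582 to 842 CPM in con, and the Kupffer cell markers to 909 and 319 to 430 CPM. Their part in these levels was not tested, and neither was the difference between L-con and con.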

How the results depend on the processing

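Over all settings tried, 834 fold changes of the 10 genes kept direction and call, 18 lost a call, 25 gained one and 50 changed sign. Of the counts of calls, 227 of 274 stayed within 1.5 times in the planned settings. All 6 did so in the settings chosen after seeing the data. The cause of the other changes was not tested unless the setting itself shows it.

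Scaling by total counts moved the median of all genes to 0.40, 1.28, 0.87 and 0.55 in con to Lt, con to Ht, Lt to Ht and Mt to Ht. Sign changes there were Ctsd (0.23), Ctsh (0.22) and Ctsl (0.28) in con to Lt, Ctsd (1.18), Ctsl (0.50) and Ctsz (1.03) in con to Ht, Ctsl (0.22) and Ctsz (0.58) in Lt to Ht, and Ctsc (0.42), Ctsl (0.081) and Ctsz (0.49) in Mt to Ht, and Ctsd (0.093) between the sorted populations. In con to Ht 8 of the 10 genes were then called higher and 0 lower, in Lt to Ht 5 higher and 0 lower (8297 genes in all, 74.9% of them higher against 36.6%), and in Mt to Ht 2 higher (4360 genes, 59.3% higher against 10%).

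With DESeq2, 2 members were called higher in Lt to Ht and 1 in Mt to Ht, and 1 was lower in F4/80+TAM against CD11b+TAM, with 300 genes in all. DESeq2 and edgeR with no filter each called Ctsk higher in CD11b+TAM against Mt2. With at least 10 counts in every library 1154 genes were called in con to Lt, 5 between the sorted populations, 3742 in F4/80+TAM against Mt2 and 3870 in CD11b+TAM against Mt2, 2 members were higher in Lt to Ht and 1 lower in F4/80+TAM against Mt2, where Ctsk was filtered out. With no filter 2 members were higher in Lt to Ht, 1 in Mt to Ht, and 1 lower between the sorted populations (242 genes). With no threshold on the fold change 2 members were higher in Lt to Ht, and 1 lower in Mt to Ht among 3888 genes. Total-count scaling gave 6 genes between the sorted populations. Ht as 3 libraries gave 1 member higher in Mt to Ht. Fold changes near 0 also turned in sign: with DESeq2 Ctsb in con to Lt (-0.054), Ctsd in con to Ht (0.0089) and Ctsz in Mt to Ht (0.0032), with at least 10 counts in every library Ctsl in con to Lt (0.034), Ctsd in con to Ht (0.11) and Ctsd between the sorted populations (7e-04), with no filter Ctsd in con to Ht (0.11) and Ctsz in Mt to Ht (0.032), in fits of only the groups compared Ctsb in con to Lt (-0.023) and Ctsd in con to Ht (0.039), and with Ht_3 left out Ctsd in con to Ht (0.044) and Ctsz in Mt to Ht (0.074).

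Leaving out 1 sample at a time gave 735 (without con_2; 1428 without con_1 and 918 without Lt_2) to 2284 genes and 0 to 3 members higher in con to Lt, 3 to 5 members higher in con to Ht, 2786 (without Lt_1; 3157 without the summed Ht_1 and Ht_3, 3533 without Ht_2) to 5960 genes and 0 to 1 members higher in Lt to Ht, 0 to 3549 genes and 0 to 1 members higher in Mt to Ht, and 0 to 136 (without CD11b+TAM_3) genes and 0 to 1 members lower between the sorted populations. The count of 0 in Mt to Ht arose without either Ht sample (3760 and 4074 genes at an unadjusted p under 0.05 in edgeR), and that between the sorted populations without F4/80+TAM_1, F4/80+TAM_2 or CD11b+TAM_2 (1008, 844 and 1914 genes); a lone sample is assumed to vary like the other groups. Ranges that crossed 0 were those of Ctsl (-0.31 to 0.35), Ctsd (-0.25 to 0.14) and Ctsb (-0.062 to 0.077) in con to Lt, Ctsd (-0.20 to 0.20) in con to Ht, Ctsc (-0.14 to 0.33) and Ctsd (-0.053 to 0.17) in Lt to Ht, and Ctsc (-0.25 to 0.012) and Ctsd (-0.027 to 0.12) in Mt to Ht. Between the sorted populations they were those of Ctss (-0.52 to 0.15), Ctsz (-0.45 to 0.067) and Ctsh (-0.35 to 0.15), positive without CD11b+TAM_3, and of Ctsd (-0.19 to 0.14), Ctsl (-0.068 to 0.19) and Lgmn (-0.021 to 0.092). There Cst3 ranged from -0.99 to -0.25, the latter without CD11b+TAM_3.

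Deviations of same-numbered samples from their group means had correlations from -0.27 to 0.01. Samples of a tissue group deviate from their mean as mirror images, so these values cannot show whether the numbers mark pairs there. Between the sorted populations, same-numbered libraries had -0.12 to 0.01 and differently numbered ones -0.05 to 0.14. Whether same-numbered samples share an animal or a batch was not settled by this check. With a replicate block, 78 genes and Ctsk were called between the sorted populations and Ctsk was called higher in CD11b+TAM against Mt2, while the counts of members in the other 5 comparisons were as before and Ctsl in con to Lt turned to 0.0052. Exchanging the numbers, chosen after seeing the data, gave 1956 genes, 4 members and Ctsl at 0.0080 in con to Lt and 2919 genes and 0 members in Mt to Ht. Changes under 2-fold could not be called under the threshold on the fold change, whatever their p.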
